A study of Saccharomyces cerevisiae with 16 samples.

Results

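The genes described here encode proteins of the mitochondrial ribosome of the yeast Saccharomyces cerevisiae. They were chosen by name and not by their counts, though with earlier results of these data known. The list held 58 nuclear genes of the MRPL, MRPS, MRP and IMG families with RSM7, NAM9 and RML2. Of these, 57 had a row in the deposited table of 5818 genes, and MRPL44 was not analysed here. The large subunit accounted for 39 of the 57 and the small subunit for 18. In 40 the protein belongs to a family that bacterial ribosomes also have, and 17 encode proteins particular to mitochondrial ribosomes.

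The mitochondrial ribosome translates the few mRNAs of the mitochondrial genome, most of which encode membrane subunits of the respiratory chain. Its rRNAs come from mitochondrial DNA, but nearly all of its proteins are encoded in the nucleus, made on ribosomes of the cytosol and imported. The initiation of these nuclear mRNAs is therefore cytosolic: a small ribosomal subunit (40S) that carries eIF2 with the initiator tRNA, and eIF3, binds near the cap, scans the 5′ untranslated region (5′ UTR, or leader) and stops at the start codon.

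The assay, selective translation complex profiling, sequences the mRNA pieces that fixed 40S subunits protect from RNase I. Cultures in rich medium (YPD, 30 °C) were fixed on ice with 0.8% formaldehyde, and the sequenced fragments were about 18 to 85 nt long. The factor-bound group held 3 libraries of 40S pulled down with an anti-FLAG antibody: eIF3a-bound from strain SY182 (eIF3a/TIF32-FLAG, number 1-1), eIF3c-bound from H25 (eIF3c/NIP1-FLAG, number 1-2) and eIF2β-bound from SY194 (eIF2beta/SUI3-FLAG, number 1-3). The unselected group held 3 libraries of total 40S from the same strains with the same numbers, so both groups carried the tags, and each factor had 1 strain and 1 library. The factor-bound libraries held 3403297, 4440991 and 4486412 counts, and the unselected libraries 2800652, 1595793 and 1891531. The counts come from whole cultures, so fewer cells with a footprint and fewer footprints per cell cannot be told apart. Nothing in the labels says that the libraries came from separate cultures, and the spread of the factor-bound group includes differences between the 3 factors. The series' 80S and mRNA libraries are not used here.

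Mitochondrial ribosomal protein mRNAs were short and had few counts each, but thin coverage was not particular to them. Of the 57 members, 53 had enough start codon counts to test, beside 3868 of 5818 genes, and 57 had enough coding region counts, beside 4797. In leaders, at stop codons and in 3′ UTRs 21, 3 and 4 members had enough, beside 2036, 497 and 725 genes. Their genes had a median length of 699 nt, from 213 nt (MRPL39) to 1461 nt (NAM9), against 1215 nt for all genes with a known length. The median member had a mean of 34.7 start codon counts and 27.3 coding region counts in an unselected library. The most start codon counts lay on MRP2 (137 on average per unselected library), MRPL39 (125), MRP10 (97.0), MRPL31 and MRPL40 (61.3). Per kb of gene, the unselected libraries averaged 192 coding region counts on both MRP49 and MRPL39, 155 on MRP10, 137 on MRPL37 and 126 on MRPS12. A positional list of caps named 5 of the members, and placed the cap 80 nt before the gene start for MRP4, 86 nt for MRP51, 94 nt for NAM9, 101 nt for MRPL38, and 150 and 142 nt for MRPL7.

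Along the summed member mRNAs, the factor-bound 40S lay further toward the 5′ end than unselected 40S, as they did on all genes. Leaders held 22.6%, 20.5% and 28.4% of the members' counts in the libraries of eIF3a, eIF3c and eIF2β, and 9.52%, 10.6% and 11.6% in the unselected libraries. The means were 23.8% ± 4.09 with a factor and 10.6% ± 1.03 without (SD, n = 3 each), and every factor-bound library lay above every unselected one. Coding regions held 27.6% ± 2.63 in factor-bound and 35.7% ± 2.51 in unselected libraries, stop codons 1.10% ± 0.199 and 4.71% ± 0.405, and 3′ UTRs 2.14% ± 0.594 and 6.53% ± 1.07 (SD, n = 3 each). These groups did not overlap either. In a two-sided exact permutation test each of these 4 areas had p = 0.1, which is the smallest that groups of 3 and 3 can give.

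The start codon share of the summed member counts did not separate the groups. It was 46.1%, 46.0% and 44.1% with eIF3a, eIF3c and eIF2β, and 46.9%, 40.0% and 40.5% without selection (two-sided exact permutation p = 0.4). Over all genes the start codon share was 61.8% ± 0.714 in factor-bound and 54.3% ± 2.92 in unselected libraries, without overlap. The coding region share of the members, 27.6% with a factor, stood beside 15.2% ± 2.96 for all genes in the same libraries. That holds for summed counts, and the medians per gene went the other way. The median member had 26.3% ± 2.99 of its own counts in its coding region with a factor, and the median over all genes was 34.4% ± 3.94. Without selection these medians were 35.1% ± 4.40 and 53.4% ± 2.33. The median member had 51.1% ± 1.83 of its own counts at its start codon in the factor-bound libraries and 41.2% ± 4.23 in the unselected ones, and these medians did not overlap between the groups (p = 0.1 in the same exact test). The median over all genes was 40.6% ± 1.28 with a factor and 26.6% ± 2.48 without (SD, n = 3 each).

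**Figure D1:**
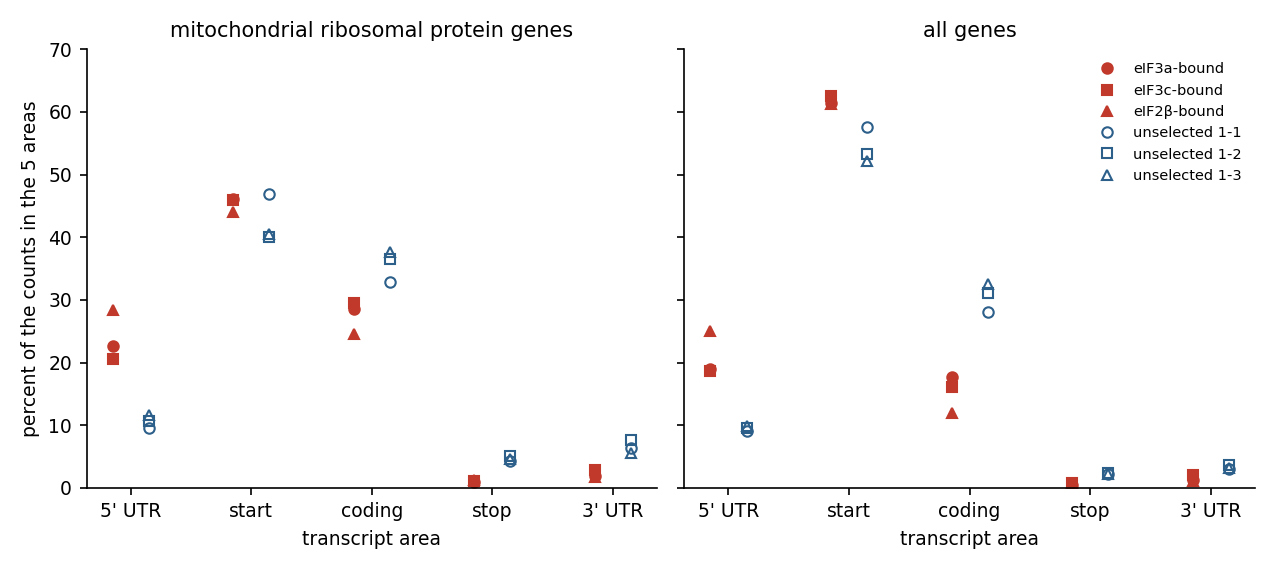
Percent of counts in each of 5 transcript areas, for the mitochondrial ribosomal protein genes (left) and all genes (right). Each point is 1 library, factor-bound in filled red and unselected in open blue. In the members' panel the start codon points of the groups overlap (44.1% to 46.1% with a factor, 40.0% to 46.9% without), and in the panel of all genes they do not.

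Set against all other genes in the same area, the members held a larger part of coding region footprints in every factor-bound library than in any unselected one. They made up 0.395%, 0.378% and 0.505% of coding region counts with eIF3a, eIF3c and eIF2β, and 0.285%, 0.249% and 0.285% without selection. At start codons their part was 0.171% ± 0.0165 with a factor and 0.183% ± 0.0209 without, and in leaders 0.265% ± 0.0329 and 0.260% ± 0.0273 (SD, n = 3 each), with overlapping groups in both areas. Within strains the start codon part was 0.183% with eIF3a and 0.198% unselected in 1-1, 0.152% and 0.159% in 1-2, and 0.177% and 0.192% in 1-3, so it was lower with the factor in all 3 pairs (two-sided exact permutation within pairs, p = 0.25, the smallest that 3 pairs allow). The leader part was higher with the factor in 1 pair and lower in 2. At stop codons it was 0.386% ± 0.0696 and 0.491% ± 0.0338, and in 3′ UTRs 0.344% ± 0.0471 and 0.461% ± 0.0476, in each case with all factor-bound libraries lower. The exact permutation test gave p = 0.1 for coding regions, stop codons and 3′ UTRs, 0.5 for start codons and 0.9 for leaders.

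Gene by gene, each area was compared between the 3 factor-bound and the 3 unselected libraries by the quasi-likelihood test of edgeR, with p-values adjusted over all genes tested (Benjamini-Hochberg) and a threshold of 0.05. A log2 fold is factor-bound over unselected, relative to the typical gene of that area. At start codons, 53 of the 57 members had enough counts to test, and 11 fell and 0 rose. Over all 3868 genes tested, 5.12% fell and 1.34% rose. The member median was −0.14 on the log2 scale and that of all genes 0.02. Falls numbered 9 of 36 large subunit members, with a median of −0.55, and 2 of 17 small subunit members, with a median of 0.13, and this difference was not tested. They numbered 8 of 38 members of bacterial families and 3 of 15 particular to mitochondria. These counts come from a fit that ignores the pairing of libraries by strain. With the strain number as a block, 16 of 53 members fell and 4 rose, beside 16.2% falls and 12.6% rises over all genes. In that fit 14 of 36 large subunit members fell and 1 rose, and 2 of 17 small subunit members fell and 3 rose. Falls with the block numbered 11 of 38 members of bacterial families and 5 of 15 particular to mitochondria. Without the block, among genes up to 966 nt long, 10 of 47 members fell (21.3%), beside 8.13% of all 1464 such genes tested.

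The deepest falls were in IMG1 and MRPS12. IMG1, the bL19 protein of the large subunit (YCR046C, chromosome III, 209914 to 210423 in build R64, as all positions here), had 10, 7 and 5 start codon counts with eIF3a, eIF3c and eIF2β, and 37, 10 and 13 in the unselected libraries. Scaled to the library's start codon total (CPM), that is 3.04 ± 1.54 with a factor and 16.0 ± 6.08 without (SD, n = 3 each). Its log2 fold was −2.54 (SE 0.45, edgeR adjusted p = 0.0136), and on this scale every factor-bound library was lower than every unselected one. MRPS12, the uS12 protein that lies at the decoding centre of the small subunit (YNR036C, chromosome XIV, 694361 to 694822), had 11, 18 and 11 counts with a factor and 62, 23 and 19 without. The scaled values were 5.25 ± 1.24 CPM with a factor and 28.3 ± 9.62 CPM without, and the log2 fold was −2.52 (SE 0.35, edgeR adjusted p = 0.00707).

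Other large subunit mRNAs fell by similar amounts with tighter replicates. MRPL36, the bL31 protein (YBR122C, chromosome II, 483970 to 484503), had 19, 14 and 26 counts with a factor and 62, 31 and 42 without, or 7.86 ± 2.45 and 39.2 ± 3.16 CPM (log2 fold −2.40, SE 0.30, edgeR adjusted p = 0.0063). MRPL37, one of the proteins particular to mitochondria (YBR268W, chromosome II, 741299 to 741616), had 25, 36 and 44 with a factor and 64, 38 and 42 without, or 13.6 ± 2.13 and 42.3 ± 2.53 CPM (log2 fold −1.70, SE 0.24). The unselected libraries of these genes lay close together and well above the factor-bound ones. MRPL20, also particular to mitochondria, fell by 2.02 on the log2 scale, with 11, 14 and 21 counts against 34, 25 and 20.

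Among the universal core proteins of the large subunit, MRPL23 (uL13) had 31, 27 and 35 start codon counts with a factor and 83, 26 and 40 without (log2 fold −1.82). MRPL9 (uL3, which reaches toward the peptidyl transferase centre) had 16 in each factor-bound library and 32, 14 and 21 in the unselected ones (−1.67). MRPL33 (uL30) was at −1.30. Both groups were again separate in each of them once scaled to depth. The remaining falls were in MRPS18 (uS11, −1.25), MRPL49 (bL21, −1.20) and MRPL35 (−0.97). In all 11 the factor-bound libraries lay below the unselected ones without overlap on the CPM scale. The 11 were chosen by this same difference in these same libraries, so the separation is a description and adds no support to the calls.

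**Figure D2:**
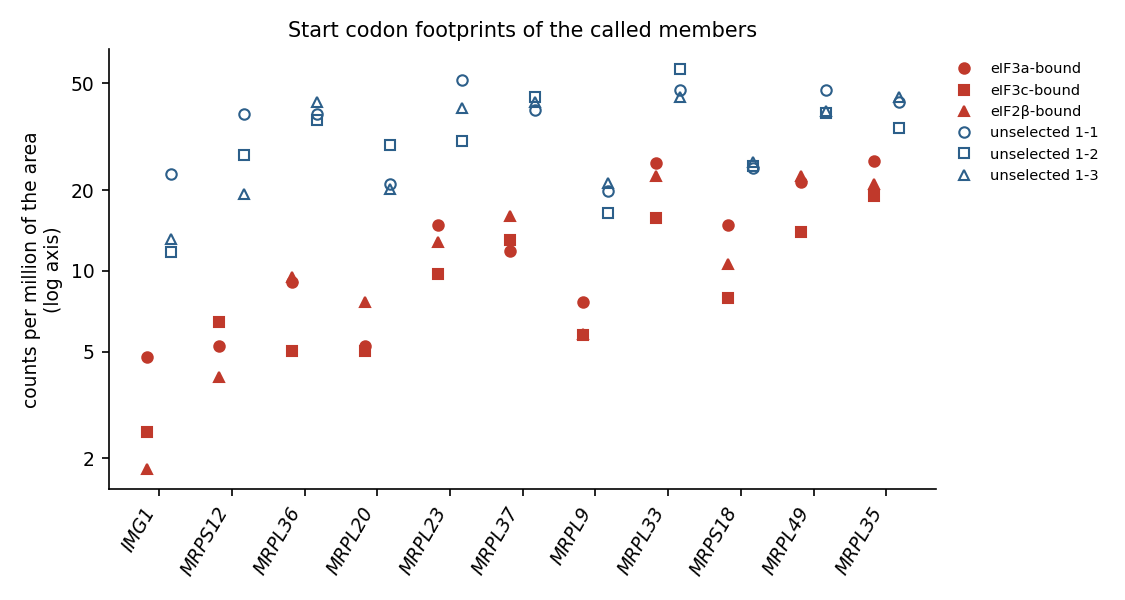
Start codon counts scaled to the library's start codon total (CPM, log axis) for the 11 members that fell, ordered by log2 fold. Factor-bound libraries (filled red) are left of unselected libraries (open blue) for each gene, and marker shapes give the strain. For MRPL36 the factor-bound mean is 7.86 and the unselected mean 39.2.

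Several falls depended on single libraries. Without the library of eIF3a 7 members fell, without that of eIF3c 3 and without that of eIF2β 9, and without unselected library 1-1, 1-2 or 1-3 the counts were 5, 7 and 6. MRPS12, MRPL36 and MRPL37 were called in each of these 6 fits. The shares over all genes in these 6 fits are not given here, so the losses cannot be read as particular to the members. With the strain number as a block, 16 members fell, the 11 above among them, and 4 rose, against 16.2% falls and 12.6% rises over all genes. The added falls were in MRP7, MRPL13, MRPL4, MRPL32 and MRP49, and the rises were in MRPS28 (log2 fold 1.15, edgeR adjusted p with the block 0.00595), MRPL7 (0.74), MRP1 (0.67) and MRPS16 (0.48). With library sizes taken from all 5 areas together, which places the median gene at 0.52, 10 members rose and 7 fell, beside 23.1% rises and 2.43% falls over all genes.

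At the upper end of the order, MRPS28, the uS15 protein of the small subunit, had 53, 48 and 73 start codon counts with a factor and 17, 11 and 6 without. Its log2 fold of 1.14 (SE 0.35, edgeR adjusted p = 0.0789) did not pass without the block. MRPL7 (uL5) had 80, 115 and 76 counts with a factor and 34, 12 and 24 without, at 0.75. MRP1, a small subunit protein particular to mitochondria, had 91, 87 and 139 with a factor and 42, 17 and 28 without, at 0.66. Each of these 3, picked after their values were seen, also had separate groups, with every factor-bound library higher in CPM. The most abundant start codons stayed near 0: MRPL39 (bL33) had 258, 318 and 331 counts with a factor and 173, 81 and 120 without (0.06), MRP2 (uS14) was at −0.14, MRP10 at −0.10, MRPL31 at 0.02 and MRPL40 at 0.03.

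The start codon folds of the members were ordered along with their leader counts. The summed leader counts of the 3 unselected libraries were used to split genes at 3 and 15 counts, limits chosen after the values were seen. Among 13 tested members with fewer than 3 leader counts, 7 fell and the median log2 fold was −1.0. Among 20 with at least 3 and fewer than 15, 4 fell and the median was −0.19. Among 20 with 15 or more, 0 fell and the median was 0.21. All genes showed the same order with smaller steps: 11.1% of 782 genes fell with a median of −0.50 in the low class, 4.63% of 1123 with −0.01 in the middle one, and 3.01% of 1963 with 0.17 in the high one. In the low class 0 of 782 genes rose, and in the high class 45 of 1963 did.

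Spearman's rho between the start codon log2 fold and the leader count was 0.71 over 53 members and 0.36 over 3868 genes, as a description only, since genes of a library share its depth and both measures use the unselected libraries. The same rank correlation with the start codon count in place of the leader count was 0.07 over the members and −0.15 over all genes. IMG1 had 0 leader counts in all factor-bound libraries and 1, 0 and 0 in unselected ones. MRPS12 had 2, 0 and 0 with a factor and 0 without, and MRPL36 had 4, 2 and 2 with a factor and 1, 0 and 0 without. MRPL9 had 0 leader counts in all 6 libraries, and MRPL37 had 1, 1 and 1 with a factor and 0, 1 and 0 without. The leaders of these 5 fallen members were thus nearly empty in both groups. Unselected leader sums of the other fallen members were 0 (MRPL35), 2 (MRPL20), 4 (MRPL33 and MRPS18), 8 (MRPL23) and 10 (MRPL49). MRPL13 and MRPL17 had 0 leader counts in all 6 libraries and were not called at start codons without the block. MRPS28 stood apart from the fallen members, with 3, 7 and 3 leader counts with a factor and 0, 0 and 1 without, and the highest start codon fold of the members tested.

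**Figure D3:**
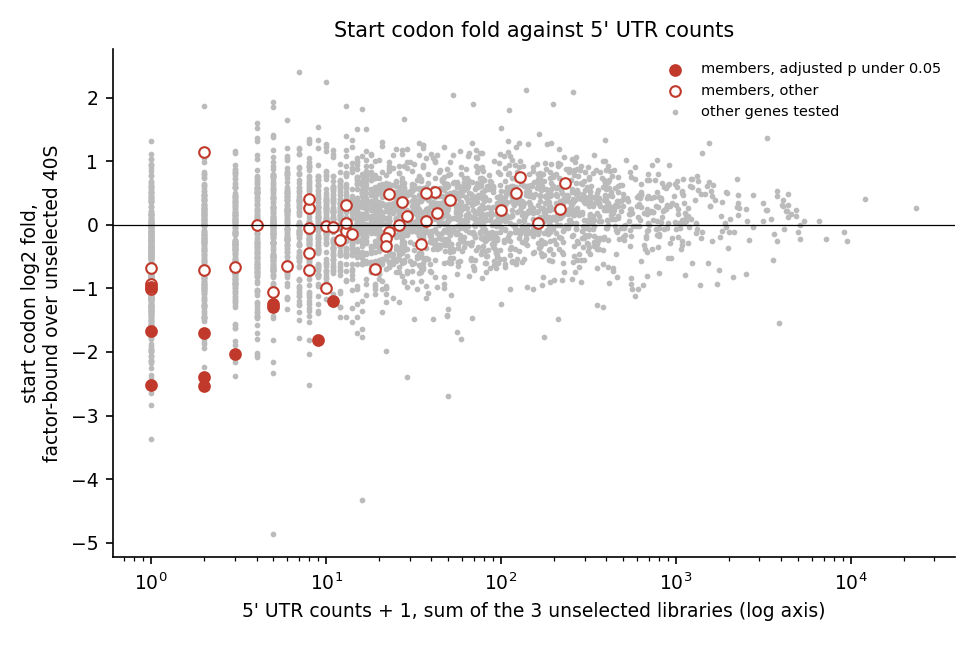
Start codon log2 fold of factor-bound over unselected 40S against the summed leader counts of the 3 unselected libraries plus 1 (log axis), for the 53 tested members (red, filled where the adjusted p is under 0.05) and all other genes tested (grey). The 11 filled points lie below 0 and at fewer than 15 leader counts, and members with 15 or more leader counts have a median of 0.21.

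The sources used here do not give the borders of each leader, and their part in this order was not tested. No leader count in any of the 6 libraries was found for 5 members (MRPL9, MRPL10, MRPL13, MRPL17 and MRPL19), 8.77% of 57, and for 18.2% of all genes. In the low class of leader counts, 10 of 13 members had their nearest upstream gene on the same strand, against 5 of 20 and 7 of 20 in the middle and high classes. Over all genes that share was 47.7%, 47.0% and 49.5% from the low to the high class.

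Leader footprints of the members were concentrated on a few mRNAs. MRP1, NAM9, MRPL31, MRPL7, RML2 and MRP4 together held 72.9% of the members' leader counts in the factor-bound libraries and 61.7% in the unselected libraries. MRP1 had 324, 360 and 691 leader counts with eIF3a, eIF3c and eIF2β and 80, 60 and 91 without selection. NAM9, the uS4 protein of the small subunit, had 259, 245 and 522 with a factor and 105, 49 and 61 without. MRPL31, a large subunit protein particular to mitochondria, had 230, 295 and 351 with a factor and 66, 40 and 55 without. In MRP1, NAM9, MRPL7 and RML2 (uL2) the leader held more counts than the start codon in the summed unselected libraries, and in the factor-bound libraries MRPL31 and MRP4 (uS2) joined them. MRP13 did so in both groups, with 1 leader count and 0 start codon counts in each sum. In the unselected sum that made 5 members, or 8.77%, beside 13% of all genes.

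Relative to the leaders of other genes none of these mRNAs passed the test. Of 21 members with enough leader counts to test, 0 fell and 0 rose (edgeR, adjusted p under 0.05), 1 had an unadjusted p under 0.05 (4 with the strain number as a block), and DESeq2 called 0. Over all 2036 genes 1.67% fell and 0% rose, and 217 had an unadjusted p under 0.05 (401 with the block). With the block 0 members were called, beside 5.16% falls and 1.57% rises over all genes. The member folds ran from −1.03 (MRPL39) to 0.56 (MRPL27) on the log2 scale, with a median of −0.08 beside −0.01 for all genes. MRPL31 was at 0.43 (SE 0.22, edgeR adjusted p = 0.531) with every factor-bound library higher on the CPM scale. MRPL24 was at −0.87 (SE 0.49, edgeR adjusted p = 0.584) with every factor-bound library lower. The share of all genes with such separate groups is not given here. With library sizes from all 5 areas the median gene was at 1.27 and the member median at 1.24, and 11 members rose and 0 fell, beside 73.5% and 1.13% of all genes.

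In coding regions all 57 members were tested, and 12 rose and 1 fell. Over 4797 genes tested 14.4% rose and 11.8% fell. The member median was 0.27 on the log2 scale and that of all genes 0.00. Rises numbered 7 of 39 large subunit members and 5 of 18 small subunit members, and the single fall was in the large subunit. With the strain number as a block 13 members rose and 1 fell, beside 19.9% rises and 17.2% falls over all genes.

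The largest rises were in short mRNAs. MRPL39, the bL33 protein and the shortest gene of the set (YML009C, chromosome XIII, 251304 to 251516), had 148, 143 and 187 coding region counts with eIF3a, eIF3c and eIF2β, and 65, 28 and 30 without selection. Scaled to the coding region total that is 265 ± 76.4 CPM with a factor and 62.5 ± 17.8 CPM without (SD, n = 3 each), a log2 fold of 2.13 (SE 0.28, edgeR adjusted p = 0.000411). MRP49, a large subunit protein particular to mitochondria (YKL167C, chromosome XI, 133721 to 134134), had 199, 286 and 365 with a factor and 113, 45 and 80 without, or 471 ± 186 and 121 ± 27.4 CPM (log2 fold 2.00, SE 0.29, edgeR adjusted p = 0.000684). In both, the lowest factor-bound library exceeded the highest unselected one by a wide margin.

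Small subunit mRNAs rose as well. MRPS8 (uS8; YMR158W, chromosome XIII, 572248 to 572715) had 110, 138 and 181 coding region counts with a factor and 62, 28 and 45 without (log2 fold 1.82, SE 0.27, edgeR adjusted p = 0.000874). MRPS16 (bS16) had 113, 116 and 155 with a factor and 51, 30 and 50 without (1.68). MRP10, a small cysteine-rich protein of the small subunit, had 111, 130 and 133 with a factor and 51, 47 and 36 without (1.57). In each of them the groups were separate, which nearly follows from the call on these same libraries and adds no support to it. MRP4 and MRP2 rose by less, at 0.96 and 0.88.

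The other rises were in large subunit mRNAs. MRPL25, a protein particular to mitochondria, had 77, 54 and 63 coding region counts with a factor and 19, 12 and 28 without (1.83). MRPL6 (uL6) had 96, 71 and 141 with a factor and 55, 25 and 50 without (1.42). MRPL49 was at 1.10, MRPL38 (uL14) at 1.08 and MRPL10 (uL15) at 1.04. MRPL49 thus rose in its coding region and fell at its start codon. MRPL10 had 110, 119 and 123 coding region counts with a factor and 79, 45 and 62 without, although it had 0 counts at its start codon and in its leader in all 6 libraries.

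MRPL24, the bL28 protein (YMR193W, chromosome XIII, 650036 to 650812), was the member that fell in its coding region, with 9, 6 and 7 counts with a factor and 18, 15 and 23 without (log2 fold −1.25, SE 0.41, edgeR adjusted p = 0.0399). This call rested on few counts. It was lost in DESeq2 (adjusted p = 0.089) and in the fits without the eIF3c-bound library, the eIF2β-bound library, or unselected library 1-2 or 1-3.

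**Figure D4:**
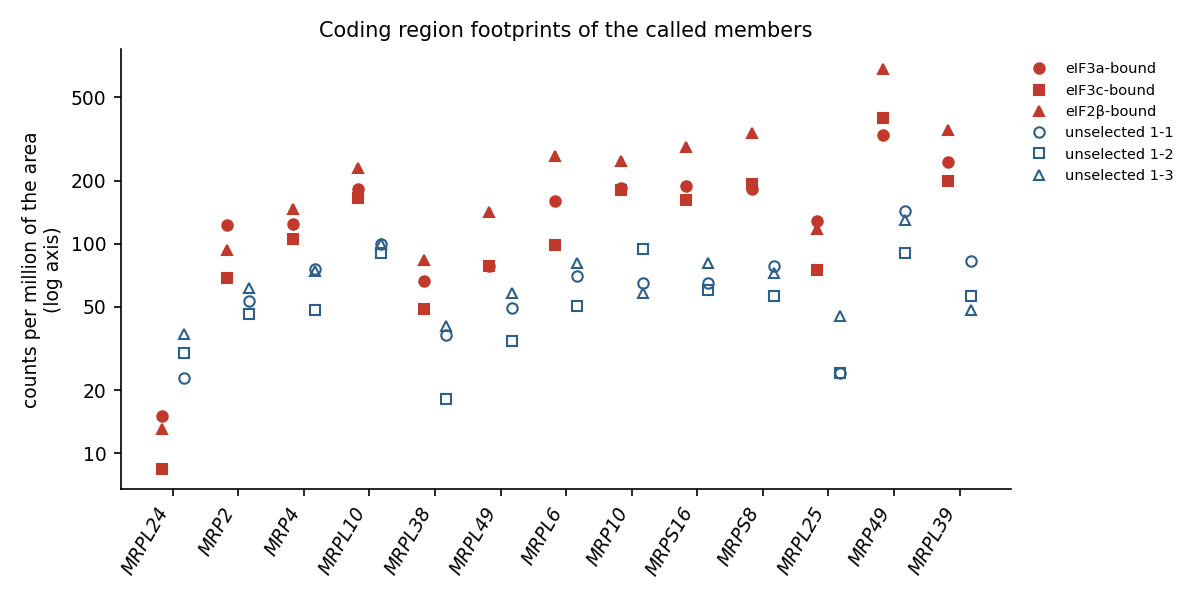
Coding region counts scaled to the library's coding region total (CPM, log axis) for the 13 called members, ordered by log2 fold from MRPL24, which fell, to MRPL39. Factor-bound libraries (filled red) are left of unselected ones (open blue). For MRP49 the factor-bound mean is 471 and the unselected mean 121. In all 13 the groups do not overlap, as nearly follows from their choice by this difference.

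Coding region folds declined with gene length across the table, and the members are short. Among genes up to 966 nt long, which are the shortest of 3 equal classes, 48 members had 10 rises, 1 fall and a median of 0.28, beside 26.4% rises, 2.31% falls and a median of 0.40 over 1604 genes. In the middle class, up to 1728 nt, 9 members had 2 rises, 0 falls and a median of 0.05, beside 11.8%, 8.40% and −0.01. The share of members that rose was thus 20.8% in the shortest class, under the share of all genes of like length. Spearman's rho between coding fold and length was −0.20 over 57 members and −0.49 over 4792 genes, as a description. With an offset for gene length in the fit, 8 members rose and 4 fell, against 10% and 7.03% over all genes, and the member median was −0.14. MRPL6, MRPL38, MRPL49 and MRP2 were no longer called, and falls in MRP17, MRPL9 and MRPL33 were added. MRPL39, MRP49, MRPL25, MRPS8, MRPS16, MRP10, MRPL10 and MRP4 rose in that fit too. Library sizes from all 5 areas, with the median gene at −0.82, gave 6 rises and 20 falls among the members, beside 3.67% and 50.6% over all genes, and a member median of −0.54.

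**Figure D5:**
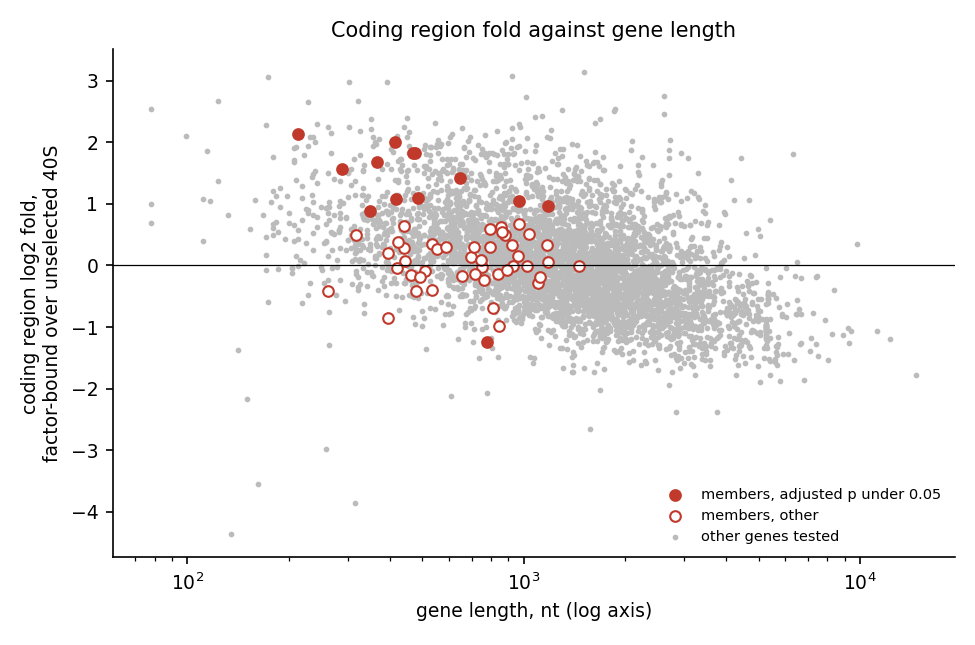
Coding region log2 fold of factor-bound over unselected 40S against gene length in nt (log axis), for the 57 members (red, filled where the adjusted p is under 0.05) and all other genes tested (grey). The cloud declines with length, and the members lie between 213 and 1461 nt.

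Within single mRNAs, the log2 ratio of start codon to coding region counts was compared with limma (pseudocount 0.5, an average of at least 20 counts). Of 56 members tested, 17 rose and 1 fell, while 56.9% of 4545 genes rose and 2.09% fell. The median change was 0.53 for the members and 1.29 for all genes, and among genes up to 966 nt it was 0.53 for 47 members and 0.82 for 1587 genes. Members with fewer than 3, 3 to fewer than 15, and 15 or more leader counts had medians of 0.10, 0.45 and 1.08, with 1, 5 and 11 rises of 16, 20 and 20. Over all genes those medians were 0.59, 1.39 and 1.51, and 26.3%, 56.2% and 75.7% rose. Without the eIF2β-bound library 11 members rose, and the share over all genes in that fit is not given here.

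The largest rises of this ratio were in MRPL24 (a log2 change of 2.30), MRPS9 (2.14), RML2 (2.01), MRPS28 (1.95) and NAM9 (1.84). Unlike the folds per area, these changes are not relative to the typical gene, and the median over all genes was 1.29. The rise in MRPL24 rested on few coding region counts (9, 6 and 7 with a factor, 18, 15 and 23 without). RML2 had log2 ratios of 0.50, 0.34 and 0.52 in the factor-bound libraries and −1.39, −2.43 and −0.85 in the unselected ones (SE of the change 0.51, limma adjusted p = 0.00363). Its start codon held more counts than its coding region with each factor and fewer in each unselected library. MRPS9 (uS9) had 1.72, 0.80 and 1.93 with a factor and 0.14, −0.96 and −1.15 without. MRPL16, MRPL7, MRP17, MRPL8 and MRPL40 rose by 1.70, 1.63, 1.60, 1.52 and 1.40. MRP17 had 8, 20 and 5 coding region counts with a factor and 28, 19 and 15 without. At start codons the folds of MRPL24 (−0.20) and MRP17 (−0.72) were below 0 and not called. MRP49 fell, with −2.07, −2.39 and −2.13 in the factor-bound and −0.84, −0.28 and −1.45 in the unselected libraries (change −1.34, SE 0.36, limma adjusted p = 0.00464). Its coding region thus held more counts than its start codon in all 6 libraries, and more so with each factor.

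The log2 ratio of leader to start codon counts rose in 1 of 49 members, MRPL36 (3.24, SE 0.67, limma adjusted p = 0.0235), beside 3.58% rises and 0.207% falls of 3378 genes. That ratio rested on 8 leader counts over the factor-bound libraries and 1 over the unselected ones, and the call was lost in each of the 6 fits that left out a library. The member median was 0.59 and that of all genes 0.44.

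Toward the 3′ end the members were too sparse for most tests. At stop codons 3 were tested. MRPL39 rose (9, 11 and 15 counts with a factor, 6, 6 and 9 without, log2 fold 1.79, edgeR adjusted p = 0.0146), and MRPS12 fell (3, 7 and 2 with a factor, 23, 25 and 27 without, −1.60, adjusted p = 0.0368), beside 14.3% rises and 10.3% falls of 497 genes. MRPS12 thus fell at both its start and its stop codon. Its stop codon call was lost in DESeq2 and in every omission of a library but that of unselected 1-1, and the call of MRPL39 was lost without the eIF3a-bound, the eIF2β-bound or the unselected 1-1 library. With library sizes from all 5 areas, where 81.1% of genes fell and 4.43% rose at stop codons, the fold of MRPL39 was −0.03 and MRPS12 and MRPS16 fell. In 3′ UTRs 4 members were tested by edgeR and 0 passed, with 0 at an unadjusted p under 0.05 and 0 called by DESeq2, beside 4% rises and 2.21% falls of 725 genes. Among those 725 genes, 139 had an unadjusted p under 0.05. With library sizes from all 5 areas 1 of the 4 members fell, beside 43% falls and 1.66% rises over all genes.

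Each factor had 1 library, so no test between factors was possible. Set against the unselected library of its own strain and centred on the median gene tested, the 11 members that fell at start codons had median log2 ratios of −1.81 with eIF3a, −1.91 with eIF3c and −1.42 with eIF2β. The 12 members that rose in coding regions had medians of 1.35, 1.24 and 1.56, in the same order of factors. Both sets were chosen by their difference over these same libraries, which fixes these signs, so they are a description only. Over all tested members the start codon medians were −0.27, −0.20 and −0.11, and the coding region medians 0.27, 0.23 and 0.17.

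Other genes of mitochondrial gene expression were set beside the members at start codons. Of 19 further mitochondrial ribosomal protein genes, 1 fell (RSM19, log2 fold −2.02, the uS19 protein) and 1 rose (RTC6, 0.80, the bL36 protein), with a median of −0.04. Among 15 tested mitochondrial translation and expression factors, 2 fell, MTG1 (−1.48), a GTPase of mitochondrial ribosome assembly, and CBP3 (−1.14), which acts on cytochrome b, and 0 rose. Of 25 protein import genes, MGE1 (0.77), a cofactor of the import motor, rose and MAS1 (−1.32), a subunit of the presequence protease, fell. Of 4 mitochondrial aminoacyl-tRNA synthetases 0 passed the test. Among 83 cytosolic ribosomal protein genes 27 fell and 5 rose, with a median of −0.32, beside 5.12% falls and 1.34% rises over all genes. With library sizes from all 5 areas the balance of that list turned, with 22 rises, 8 falls and a median of 0.19, beside 23.1% rises and 2.43% falls over all genes. The same sizes gave 5 rises and 1 fall among the further mitochondrial ribosomal protein genes, 2 and 0 among the factors, and 9 and 0 among import genes. With the strain number as a block 16.2% of all genes fell and 12.6% rose. Falls were then 5 of 19 further mitochondrial ribosomal, 6 of 15 factor, 6 of 25 import and 41 of 83 cytosolic ribosomal genes. The rises were 2, 1, 4 and 10 in the same order. Many cytosolic ribosomal protein genes have a near-identical paralog, so their counts are uncertain.

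For the ratio of leader to start codon counts, 29 of 83 cytosolic ribosomal protein genes rose beside 1 of 49 members, with medians of 0.94 and 0.59. This difference was not tested. Over all 3378 genes tested 3.58% rose, with a median of 0.44. Leaders had enough counts to test in 77 of the 83 cytosolic genes and 21 of the 57 members. The numbers of rises therefore rest on unlike depth. In coding regions 2 of the 19 further mitochondrial ribosomal protein genes rose, RSM27 (1.15) and EHD3 (0.85), and 0 fell. Translation and expression factors had 4 rises, led by GUF1 (1.62) and PET54 (1.51), and 4 falls, led by MEF1 (−1.40), a mitochondrial elongation factor. Import genes had 3 rises, led by PAM16 (2.39), and 2 falls, in SSC1 (−1.01), the Hsp70 of the import motor, and TIM8 (−0.75). Cytosolic ribosomal protein genes had 22 rises and 4 falls of 83, beside 14.4% rises and 11.8% falls over all genes. With the offset for gene length that list had 1 rise and 26 falls, and with library sizes from all 5 areas 0 rises and 51 falls, so its direction turned. Over all genes the offset gave 10% rises and 7.03% falls, and those library sizes 3.67% rises and 50.6% falls. Further mitochondrial ribosomal genes, factors and import genes had 1, 2 and 1 rises and 0, 2 and 4 falls with the length offset, and 0, 1 and 1 rises and 7, 16 and 15 falls with those library sizes. With the strain number as a block, where 19.9% of genes rose and 17.2% fell, falls numbered 8 among factors, 4 among import genes and 7 among cytosolic ribosomal protein genes, and rises among import genes 5.

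Some members' counts cannot be assigned with certainty. MRPL19 overlaps YNL184C on the same strand, and MRP4 and MRPL51 overlap YHL005C and YPR099C on the opposite strand, and the sources used here do not say whether strands were counted apart. MRPL10, MRPL19 and MRP13 had 0 start codon counts in all 6 libraries, 5.26% of the members beside 8.65% of all genes, and MRPL3 had 5, 0 and 4 with a factor and 5, 0 and 1 without. These 4 were not tested at start codons. MRP13 and MRPL3 had 41, 38 and 41, and 46, 40 and 51, coding region counts with a factor, and 63, 33 and 37, and 75, 16 and 35, without, and neither passed the test (−0.01 and 0.32).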

How the data were processed

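The deposited table holds raw whole-number counts of footprints in 5 transcript areas of each gene, made by the authors, for 6 libraries of 40S. Per the submitters' processing notes, the tools were Bowtie 1.2.2, TopHat2 2.1.0, CASAVA 1.8 and Bowtie2 2.2.6, and the build was R64, with no role or order given. The sources used here do not give the borders of the areas or the treatment of reads with several matches. The deposited cap list gives positions only. Samples were grouped by their titles. The table names a column eIF2alpha for number 1-3 where the labels name eIF2beta, and it was taken as that library.

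Of 5818 gene IDs 5776 matched the RefSeq table of R64, which gave names, lengths and 1-based positions, and 42 did not. Per area, counts were tested with edgeR 4.0.16 (R 4.3.3) after filterByExpr and TMM scaling within the area, and ratios of areas with limma 3.58.1. An edgeR standard error was computed as |log2 fold| over the root of the F statistic. Shares were tested in Python 3.11.15 with SciPy 1.17.1 by exact permutation (two-sided), and, as an alternative added after seeing the data, within strain pairs. Scripts were tested on simulated data. Same-numbered libraries come from the same tagged strain, and their deviations from group means correlated (0.428 to 0.589 at start codons, 0.256 to 0.32 in coding regions, above 0.1 in every area), so the numbers pair them. The main fits have no block and so ignore this pairing, and counts with the strain block are given beside them. Alternatives were DESeq2 1.42.0, no filter, library sizes from all 5 areas, the strain block, a length offset, other ratio settings and leaving out each library.

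The members and the other gene lists were chosen with earlier results of these data known. Members were named where they passed the threshold with groups that did not overlap, up to 10 per direction and area, or were among the 5 with the most start codon counts or coding counts per kb, or had no start codon count. MRPS28, MRP1, MRP4, MRPL35, MRPL3, MRPL51 and the members named for leader counts, lost calls or the block were named after their values were seen. Precision is limited by the low counts per gene, and errors cover counting and library spread only.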

Additional observations from a re-analysis of the deposited data

How the results depend on the processing

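No called member fold changed sign under any alternative, apart from MRPL39 at stop codons (−0.03, not called, with library sizes from all areas). With those library sizes MRPS16 at stop codons (−1.52) and MRPL25 in leaders (1.24) were called with the opposite sign of their uncalled fold. The 11 start codon falls were also called by DESeq2, 9 of them without the filter, and all with the replicate block, which gave 4 rises. Leaving out 1 library gave 3 to 9 falls at start codons. Shares over all genes are not given for any fit that left out a library. They are also not given for DESeq2, no filter, the length offset with the replicate block, or other ratio settings. Counts of called members in those fits cannot be read as particular to the members. Library sizes from all areas moved the median gene to 0.52 at start codons, −0.82 in coding regions, 1.27 in leaders, −1.82 at stop codons and −0.98 in 3′ UTRs (log2). With them 10 members rose and 7 fell at start codons, 6 rose and 20 fell in coding regions, 11 rose in leaders, 0 rose and 2 fell at stop codons, and 1 fell in 3′ UTRs, so those directions are relative to the area. In coding regions the fall count was 0 with DESeq2, 4 with the offset for gene length, and 7 with that offset and the replicate block (9 rises, an alternative chosen after seeing the data). Leaving out 1 library gave 0 to 1 falls and 8 to 13 rises there. At stop codons 0 fell with DESeq2, 0 rose without the filter, and leaving out a library gave 0 to 1 of each. Without the filter 1 member fell in 3′ UTRs. The start to coding ratio fell in 3 members at a minimum of 50 counts, and leaving out 1 library gave 11 to 19 rises and 1 to 2 falls. The leader to start ratio rose in 0 to 1 members. The members' share of leader counts, 0.00574 percentage points higher with a factor, was −0.00624 without MRP1 and ran from −0.00657 to 0.0244 when 1 library was left out. Over all members, the block moved no other count of called members by over 1.5 times. Depth limits leaders, stop codons and 3′ UTRs most, where 21, 3 and 4 of 57 members could be tested.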
